A study of Mus musculus with 8 samples.

Results

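Fast transmission in the hippocampus runs mainly on glutamate and GABA, and both are loaded, released and cleared by dedicated transporters. The 8 genes described here stand for these steps: Slc17a6, Slc17a7 and Slc32a1 (vesicular loading), Slc1a1, Slc1a2, Slc1a3 and Slc6a11 (uptake from the synapse), and Glul, the astrocyte enzyme that turns the recovered glutamate into glutamine. They were chosen by gene symbol, with earlier results of these data known. Every probe whose accession was matched to these genes was taken, which gave 11 probes of 39429 and 8 of 19751 named genes. RNA was measured in hand-dissected whole hippocampus of untreated wild type C57BL/6J mice, kept in the home cage. They are labelled as 3 months of age (3M, 4 arrays) and 29 months (29M, 4 arrays). By the study's methods, the oldest mice spanned ages around 29 months, having been bought aged and then held in-house for months. The sources used here do not give the sex of the mice and do not say whether tissue was pooled, so p-values measure the spread between these samples. The precision of the values is limited by the number of arrays. The question was which of these genes differed between young and old hippocampus.

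Glutamate released by a neuron is not broken down in the synaptic cleft. It is taken up, above all by astrocytes through the transporters encoded by Slc1a2 and Slc1a3, converted to glutamine by glutamine synthetase, and handed back to neurons, where glutaminase makes glutamate again and, in interneurons, glutamate decarboxylase makes GABA. GABA is taken up by neurons as well as by astrocytes, which do so largely through the transporter encoded by Slc6a11.

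Of the 8 genes, Slc6a11, the astrocyte GABA transporter GAT3, was 3.12-fold lower at 29M and was the only one that passed the thresholds. Slc1a2, the main glutamate transporter of astrocytes, read lower at 29M on all of its 3 probes, by 0.22 to 0.28 on the log2 scale, and did not pass. The remaining 6 genes differed by 0.18 or less on each of their probes, in either direction, and none of them passed. A probe was called when limma gave an adjusted p under 0.1 and the log2 change reached 0.5. By this rule 1 of the 11 member probes was called lower and 0 were called higher, where 0.809% of all 39408 tested probes were called lower and 1.25% higher (2.06% in either direction). The 3M and 29M values did not overlap on 2 of the 11 member probes (18.2%), against 11.1% of all probes. An unadjusted p under 0.05 was found on 4 of the 11 (36.4%, against 16.9% of all probes), and these were the Slc6a11 probe and the 3 probes of Slc1a2, which share 1 gene. The median log2 change over the member probes was -0.12, beside 0.00 over all probes. As the members were chosen with earlier results of these data known, these shares are a description and no test. The shares over all probes include dim ones, as 77.6% of the tested probes were well above background on all arrays of a group.

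On each array 43020 spots were not controls, and 76.2% (replicate 1 of 3M) to 85.0% (replicate 4 of 3M) of them were well above background. No spot was saturated, and the Pearson correlation of normalized values over all probes was 0.991 to 0.998 for any pair of arrays. Probes of an array are not independent of each other. All 11 member probes were well above background on all 8 arrays. Values are given as normalized log2 intensity. Because the brightness of a probe also depends on its sequence, levels are compared between samples and not between genes. The markers of excitatory neurons (7 genes), interneurons (8) and astrocytes (8) were well above background on all arrays. Markers of the neighbouring thalamus and habenula were too, except 1 of 8 genes.

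**Figure D1:**
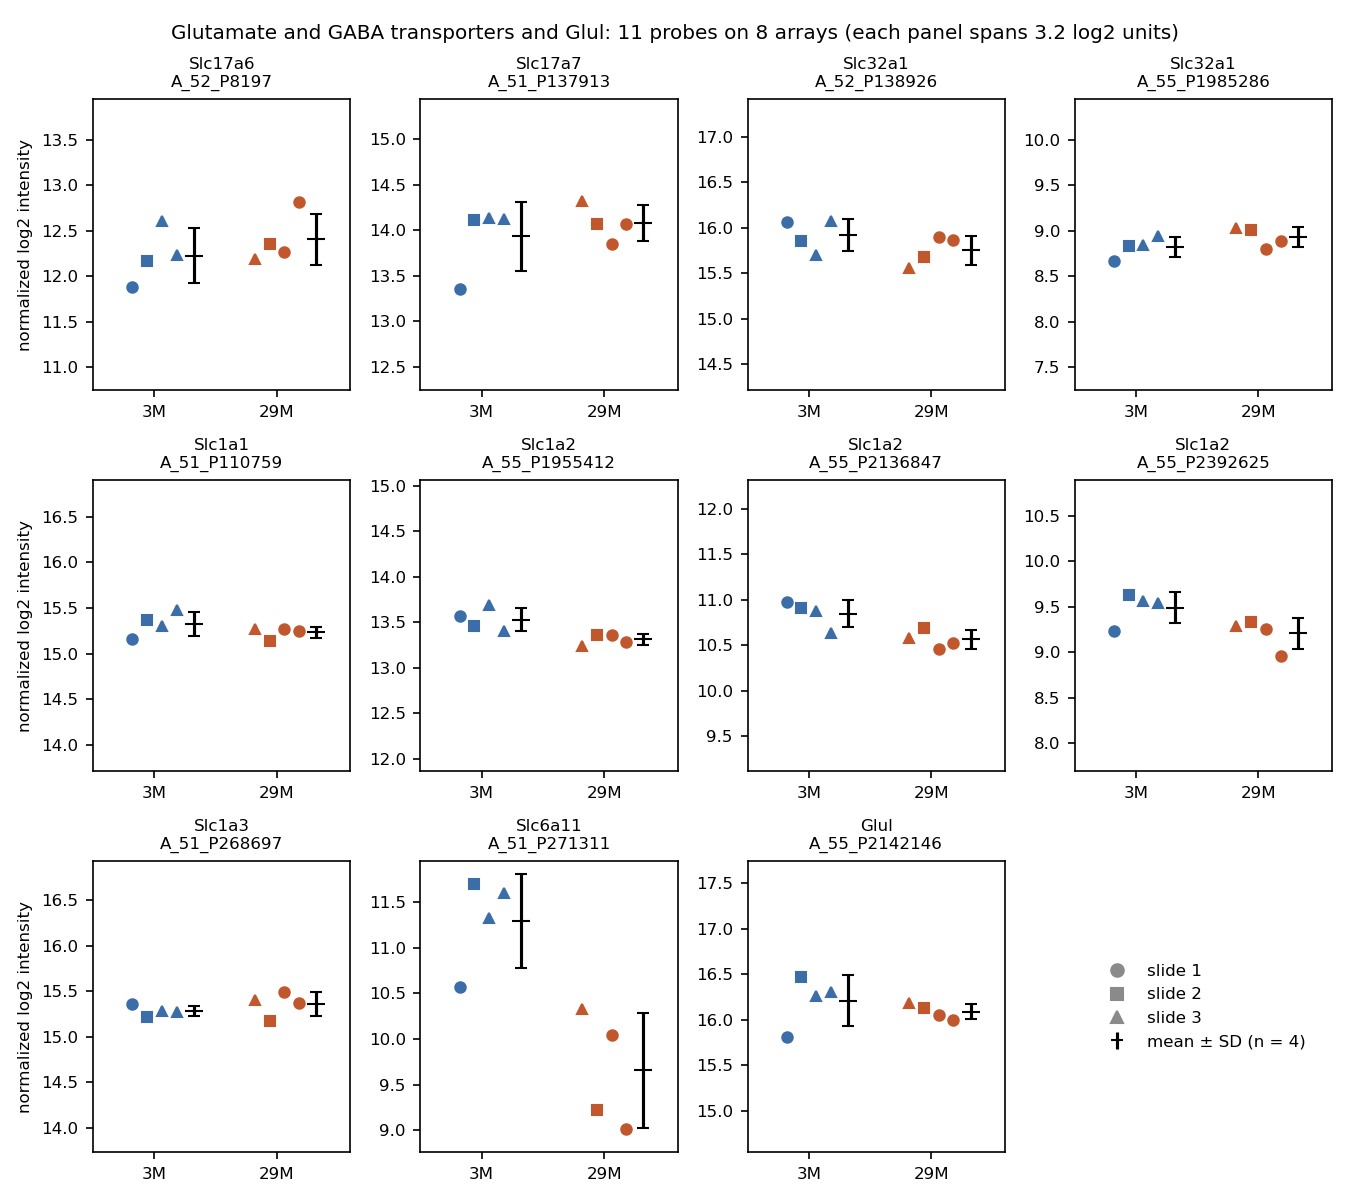
Normalized log2 intensity (vertical axes, each of the same span) of the 11 member probes on the 4 arrays of 3M (blue) and the 4 of 29M (orange), with symbols for the 3 slides and the mean ± SD beside each group. Only the Slc6a11 panel shows a wide separation of the groups, with 3M between 10.57 and 11.70 and 29M between 9.01 and 10.33.

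Slc6a11 encodes a sodium- and chloride-dependent transporter of the plasma membrane, found mostly on astrocyte processes, that lowers the GABA level around synapses. Its promoter window is printed because it belongs to the only member that passed the thresholds, and that of Slc1a3 is set beside it as a second astrocyte transporter whose groups overlapped. Both run 5′ to 3′ from 250 bases before to 50 bases after the transcript start, come from RefSeq on the assembly GRCm38.p6, and carry in capitals every match to 6 motifs. The motifs were the GC box GGGCGG, the TATA box TATAAA and the CCAAT box. They also comprised the E-box CACGTG, the cAMP response element TGACGTCA and the STAT site TTCNNNGAA, and each was searched on both strands.
Slc6a11, chr6:114130991-114131290, plus strand: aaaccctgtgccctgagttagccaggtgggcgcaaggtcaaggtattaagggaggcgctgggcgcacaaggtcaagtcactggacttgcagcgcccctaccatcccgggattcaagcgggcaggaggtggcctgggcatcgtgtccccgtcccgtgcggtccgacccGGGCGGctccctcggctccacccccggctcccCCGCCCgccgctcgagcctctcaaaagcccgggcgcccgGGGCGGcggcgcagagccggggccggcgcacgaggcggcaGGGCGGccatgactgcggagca
Slc1a3, chr15:8710758-8711057, minus strand: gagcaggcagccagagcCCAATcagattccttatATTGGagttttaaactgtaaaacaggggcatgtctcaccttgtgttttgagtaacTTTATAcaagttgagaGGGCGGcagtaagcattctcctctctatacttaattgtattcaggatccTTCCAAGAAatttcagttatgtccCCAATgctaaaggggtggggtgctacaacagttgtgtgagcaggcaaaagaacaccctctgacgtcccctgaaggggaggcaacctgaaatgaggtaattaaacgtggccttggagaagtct
The Slc6a11 window had a GC content of 72.3%, held 4 GC boxes and matched no other motif of the 6. The Slc1a3 window had a GC content of 45.3%, with 1 GC box, 1 TATA box, 3 CCAAT boxes and 1 STAT site. Over 32851 promoters of this length the median GC content was 52.7%. A GC box occurred in 35.7% of them, a TATA box in 13.6%, CCAAT in 37.4%, the E-box in 7.15%, the cAMP response element in 1.79% and the STAT site in 8.3%. These matches describe the letters of the windows and were not set against the changes with age.

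On its single matched probe, Slc6a11 read 10.57, 11.70, 11.32 and 11.60 in replicates 1 to 4 of 3M. In replicates 1 to 4 of 29M it read 10.33, 9.23, 10.04 and 9.01. Every 29M array was thus below every 3M array, although replicate 1 of 3M and replicate 1 of 29M were only 0.23 apart. The mean fell from 11.30 ± 0.51 at 3M to 9.66 ± 0.64 at 29M (SD, n = 4 each), a log2 change of -1.64 (SE 0.33, 95% interval -2.39 to -0.90, adjusted p = 0.0492 by limma). This was the 10th largest fall among all tested probes. In the unnormalized scanner units the spot read 1533, 3328, 2700 and 2968 at 3M, against 1301.5, 654, 1037 and 499 at 29M. The separation was therefore already present before normalization. In bulk tissue, fewer cells of a type and less RNA per cell cannot be told apart.

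The arrays lay on 3 slides, each with both ages. Slide 1 held replicate 1 of 3M with replicates 3 and 4 of 29M. Slide 2 held replicate 2 of each age, and slide 3 held replicates 3 and 4 of 3M with replicate 1 of 29M. A difference within a slide, here and below, thus rests on 1 array of at least 1 age. The log2 difference of Slc6a11 (29M minus 3M) was -1.04 within slide 1, -2.47 within slide 2 and -1.13 within slide 3. With slide as a fixed block the change was -1.46 and the call was kept (adjusted p = 0.0988 by limma). The direction was the same in all alternatives, but the adjusted p lay near the threshold in several. The call was lost with processed signals scaled to the 75th percentile of each array, where the change was -1.72 (adjusted p = 0.109 by limma). It was also lost without replicate 2, 3 or 4 of 3M (-1.51, -1.63 and -1.54, with limma adjusted p of 0.143, 0.112 and 0.107) and without replicate 2 or 4 of 29M (-1.50 and -1.43, with limma adjusted p of 0.132 and 0.117). Without replicate 1 of 3M, the lowest of its group, the change was -1.89 (adjusted p = 0.0147 by limma).

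Slc6a11 is also expressed strongly outside the hippocampus, in the thalamus among other regions, so the markers of the tissue beside the hippocampus were read on the same arrays. Of 8 genes marking thalamus and habenula 0 were called, and their median log2 change was 0.01. Their summed log2 level was 14.52, 14.56, 13.81 and 14.89 in replicates 1 to 4 of 3M and 14.20, 14.17, 14.28 and 14.86 in replicates 1 to 4 of 29M. The groups overlapped, with 1 low array in 3M and 1 high array in 29M. Prkcd, the brightest of the list (mean 12.77 at 3M and 13.10 at 29M), read 12.91, 12.97, 11.67 and 13.54 at 3M. At 29M it read 12.87, 12.92, 12.67 and 13.94. Prkcd differed by 0.33 on this probe (SE 0.39, adjusted p = 0.722 by limma) and by 0.29 on its other probe. Within this list Zic1, a transcription factor of thalamic and septal neurons, read 12.71, 13.04, 11.51 and 13.49 at 3M and 11.82, 11.40, 12.23 and 12.24 at 29M. Zic1 differed by -0.77 on this probe (SE 0.38, adjusted p = 0.347 by limma) and by 0.01 on its other probe. By sign alone 5 of the 8 genes were higher and 3 lower at 29M. The part of Prkcd and Zic1 in the Slc6a11 result was not tested. No gene of the neocortex list (5 genes, median -0.03) or the choroid plexus list (4 genes, median 0.10) was called.

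**Figure D2:**
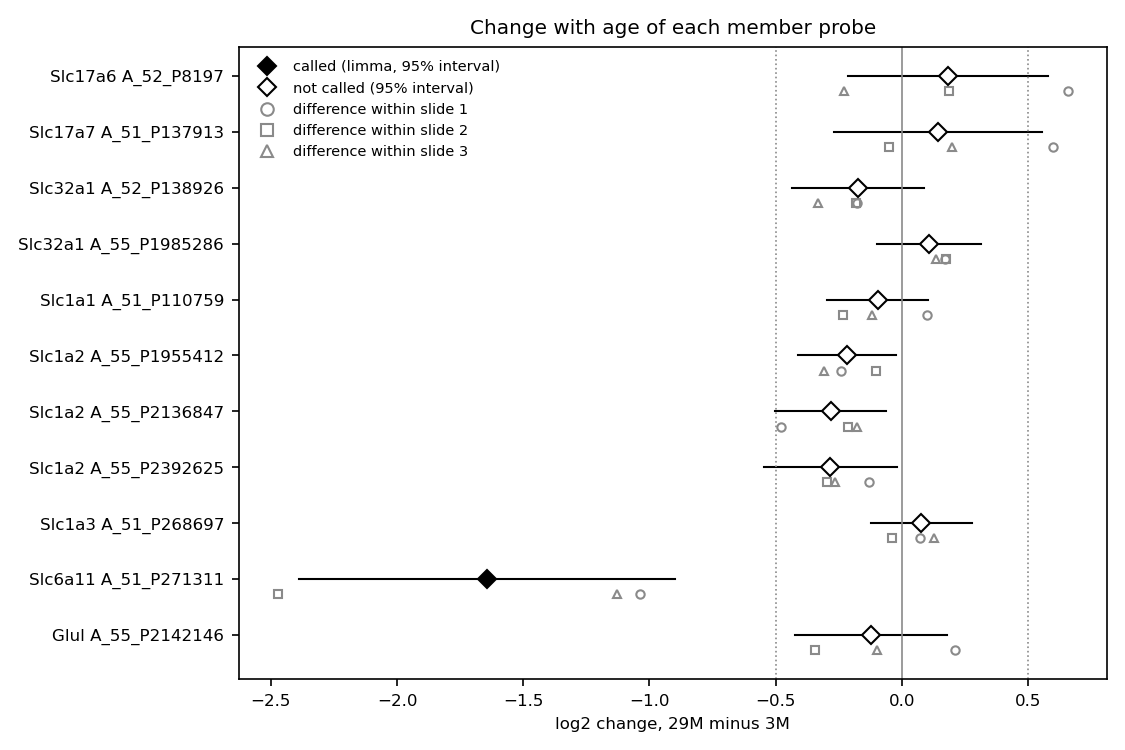
Log2 change of each member probe (29M minus 3M, horizontal axis) with its 95% interval from limma, and below it the difference within each of the 3 slides, where dotted lines mark the log2 threshold of 0.5 in both directions. Slc6a11 at -1.64 is the only filled, called symbol, and all 9 within-slide differences of the 3 Slc1a2 probes lie below 0. Each slide holds only 1 array of at least 1 age.

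Slc1a2 encodes GLT-1, which carries most of the glutamate uptake of the forebrain. The probe with the highest mean read 13.57, 13.46, 13.69 and 13.41 in 3M and 13.24, 13.36, 13.36 and 13.29 in 29M. The groups did not overlap, but the lowest 3M array and the highest 29M array were only 0.04 apart. The log2 change was -0.22 (SE 0.09, 95% interval -0.41 to -0.02, adjusted p = 0.243 by limma), which missed the threshold on p and on size.

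Both other Slc1a2 probes are assigned to another transcript record than the brightest one, and they gave changes of the same sign. The first (A_55_P2136847) read 10.97, 10.91, 10.87 and 10.64 at 3M and 10.58, 10.70, 10.46 and 10.52 at 29M. The other (A_55_P2392625) read 9.23, 9.63, 9.56 and 9.55 at 3M and 9.29, 9.33, 9.25 and 8.96 at 29M. On each of them 1 array of 3M, replicate 4 on the first and replicate 1 on the other, lay in the range of 29M. The log2 changes were -0.28 (SE 0.10, adjusted p = 0.189 by limma) and -0.28 (SE 0.12, adjusted p = 0.260 by limma). All 9 differences within slides, 3 for each probe, were negative and ran from -0.48 to -0.10. These probes report 1 gene in the same RNA samples and are not independent of each other. Each slide also held only 1 array of at least 1 age.

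Slc1a3 encodes GLAST, the other glutamate transporter of astrocytes, which is also strong in radial glia. Its probe read 15.36, 15.21, 15.28 and 15.28 in 3M and 15.41, 15.17, 15.49 and 15.37 in 29M. The groups overlapped throughout. The log2 change was 0.08 (SE 0.09, adjusted p = 0.709 by limma), and its sign turned with processed signals, to -0.10 after scaling to the 75th percentile and -0.09 after variance stabilisation.

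Whether both astrocyte glutamate transporters shifted by different amounts was tested on the difference of their log2 values within each array. This difference, of which only the shift with age can be read, was -1.75 ± 0.11 in 3M and -2.05 ± 0.16 in 29M (SD, n = 4 each). Slc1a2 thus shifted by 0.29 below Slc1a3, and the ranges of the groups overlapped slightly (-1.87 to -1.60 in 3M, -2.17 to -1.82 in 29M). A two-sided exact permutation test over the arrays gave p = 0.0571, or 0.171 adjusted over the 3 pairs of genes compared, where the smallest p that 4 arrays against 4 allow is 0.0286. Within slides the shift was -0.31, -0.06 and -0.44. With processed signals the shift was -0.15, both after scaling to the 75th percentile and after variance stabilisation (exact permutation p = 0.286 in each). Without replicate 2 of 29M it was -0.37 (exact permutation p = 0.0286), and without each of the other arrays the exact p was above the threshold of 0.05.

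Glul encodes glutamine synthetase, which is found mainly in astrocytes. Its probe read 15.81, 16.47, 16.25 and 16.30 at 3M and 16.18, 16.13, 16.05 and 15.99 at 29M. The lowest of all 8 values was replicate 1 of 3M, and the 29M arrays lay between it and the other 3M arrays. The log2 change was -0.12 (SE 0.13, adjusted p = 0.697 by limma), with 0.21 within slide 1, -0.34 within slide 2 and -0.10 within slide 3. Leaving out replicate 1 of 3M gave -0.25, and leaving out replicate 2 of 3M gave -0.034. Glul has closely similar copies in the mouse genome, and the probe's sequence was not available here to tell them apart.

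The markers of astrocytes give the setting of these 4 astrocyte genes. Of 8 marker genes 1 was called higher and 0 lower, with a median log2 change of 0.24. By sign alone 5 were higher and 3 lower, the latter being Aldoc (-0.19), Aldh1l1 (-0.07) and Gja1 (-0.06). The called gene was Gfap, the intermediate filament of astrocytes, which rose by 0.71 (SE 0.12, adjusted p = 0.0235 by limma) from 15.52 ± 0.17 to 16.23 ± 0.17 (SD, n = 4 each). S100b, a calcium-binding protein of astrocytes, differed by 0.33 (SE 0.09, adjusted p = 0.109 by limma). The summed log2 level of the 8 markers was 18.41 to 18.76 in 3M and 18.56 to 18.73 in 29M, so that it overlapped between the ages. Aldoc, by far the brightest of the list (mean 17.84 at 3M and 17.65 at 29M), weighs most in this sum. The part of this level in the values of Slc6a11, Slc1a2, Slc1a3 and Glul was not tested.

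Slc1a1 encodes EAAC1, the glutamate and cysteine transporter of neurons. Its probe read 15.16, 15.37, 15.31 and 15.48 in 3M and 15.27, 15.13, 15.27 and 15.25 in 29M. The 29M values lay mostly inside the range of 3M. The log2 change was -0.10 (SE 0.09, adjusted p = 0.633 by limma), and within slide 1 it was 0.10 in the other direction.

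The vesicular transporters set which transmitter a neuron releases. Slc17a7 encodes VGLUT1, the main vesicular glutamate transporter of hippocampal principal neurons. Slc17a6 encodes VGLUT2, which is typical of thalamic and other subcortical neurons and reaches the hippocampus mainly in their axons. Slc32a1 encodes VGAT, which loads GABA in interneurons. None of the 3 genes had a probe that was called.

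Slc17a7 read 13.36, 14.12, 14.13 and 14.12 in 3M and 14.33, 14.07, 13.84 and 14.07 in 29M. Replicate 1 of 3M stood apart from 3 nearly equal arrays of its group. The log2 change was 0.14 (SE 0.18, 95% interval -0.27 to 0.56, adjusted p = 0.742 by limma), and without replicate 1 of 3M it was -0.05 (adjusted p = 0.855 by limma), so that the sign of the main value rests on that array. Slc17a6 read 11.88, 12.17, 12.61 and 12.24 at 3M and 12.19, 12.36, 12.26 and 12.81 at 29M. The groups overlapped, and the highest value was in replicate 4 of 29M. The log2 change of Slc17a6 was 0.18 (SE 0.18, 95% interval -0.21 to 0.58, adjusted p = 0.647 by limma). It was 0.66 within slide 1, 0.19 within slide 2 and -0.23 within slide 3, and it was -0.02 with processed signals scaled to the 75th percentile.

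Slc32a1 has a pair of probes whose changes had opposite signs. The brighter probe (A_52_P138926) read 16.06, 15.86, 15.70 and 16.07 at 3M and 15.56, 15.68, 15.90 and 15.86 at 29M, a log2 change of -0.17 (SE 0.12, adjusted p = 0.494 by limma). The dimmer probe (A_55_P1985286) read 8.67, 8.83, 8.84 and 8.94 at 3M and 9.03, 9.01, 8.80 and 8.88 at 29M, a log2 change of 0.11 (adjusted p = 0.593 by limma). On both probes the ages overlapped, and each probe kept its sign within all 3 slides, from -0.33 to -0.18 on the brighter one and from 0.13 to 0.18 on the dimmer one. No direction can be given for Slc32a1 from them.

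The balance of the vesicular transporters was compared in the same way as that of the astrocyte transporters. The shift of Slc17a7 against Slc17a6 was -0.04 (two-sided exact permutation p = 0.886, adjusted over the 3 pairs 0.886), and its sign turned in several alternatives. Slc17a7 shifted by 0.32 above Slc32a1 (two-sided exact permutation p = 0.4, adjusted 0.6), with 0.77, 0.13 and 0.53 within slides 1 to 3. In each group the spread of this difference (SD 0.50 in 3M and 0.35 in 29M) was larger than the shift. The shift was 0.081 without replicate 1 of 3M, 0.17 without replicate 1 of 29M, 0.15 with either use of processed signals and 0.18 over all probes of each gene. Beside these genes, 0 of 7 markers of excitatory neurons (median log2 change -0.14), 0 of 8 markers of interneurons (median -0.02) and 0 of 5 general neuronal markers (median 0.02) were called. Within the excitatory list the groups did not overlap for Nrgn, the postsynaptic protein neurogranin, which differed by -0.53 (SE 0.14, adjusted p = 0.107 by limma). The summed log2 level of the excitatory markers was 17.56 to 17.87 in 3M and 17.29 to 17.57 in 29M, with an overlap of only 1 array of each group. Nrgn, the brightest of the 7 (mean 16.66 at 3M and 16.14 at 29M), weighs most in this sum. By sign alone 2 of the 7 were higher and 5 lower. Of the glial and vascular markers, 5 of 5 genes of microglia (median log2 change 0.34, with Cx3cr1 lacking replicate 4 of 29M as an outlier spot), 6 of 6 of oligodendrocytes (median 0.18) and 4 of 4 of endothelium (median 0.17) read higher at 29M, and none was called. The part of these lists in the values of the transporters was not tested.

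The wider glutamate and GABA cycle was followed in a list of 28 further genes, of which 27 were measured. This list was also chosen with earlier results of these data known. Of the 27 genes 1 was called higher and 0 were called lower. By sign alone 16 were higher and 11 lower at 29M, with a median log2 change of 0.10 beside 0.00 over all probes. Of all probes, dim ones included, 2.06% were called, while the 27 genes were all well above background on all arrays. The groups did not overlap for 4 of the 27 genes on the brightest probe, where 11.1% of all probes did not overlap, and 9 had an unadjusted p under 0.05, against 16.9% of all probes.

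The called gene was Slc6a12, the betaine and GABA transporter BGT1, which serves osmotic balance in kidney and is known in brain mostly from the leptomeninges. It read 10.58, 10.03, 10.63 and 9.86 in 3M and 11.41, 11.44, 11.72 and 10.80 in 29M. Every 29M array was above every 3M array. Slc6a12 rose by 1.07 on the log2 scale (SE 0.23, adjusted p = 0.0579 by limma), and by 0.68, 1.42 and 1.16 within slides 1 to 3. The call was lost with slide as a fixed block, at 1.05 (adjusted p = 0.135 by limma). It was also lost without replicate 2 or 4 of 3M (0.98 and 0.93, with limma adjusted p of 0.164 and 0.118) and without replicate 1, 2 or 3 of 29M (1.05, 1.03 and 0.94, with limma adjusted p of 0.158, 0.148 and 0.105).

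**Figure D3:**
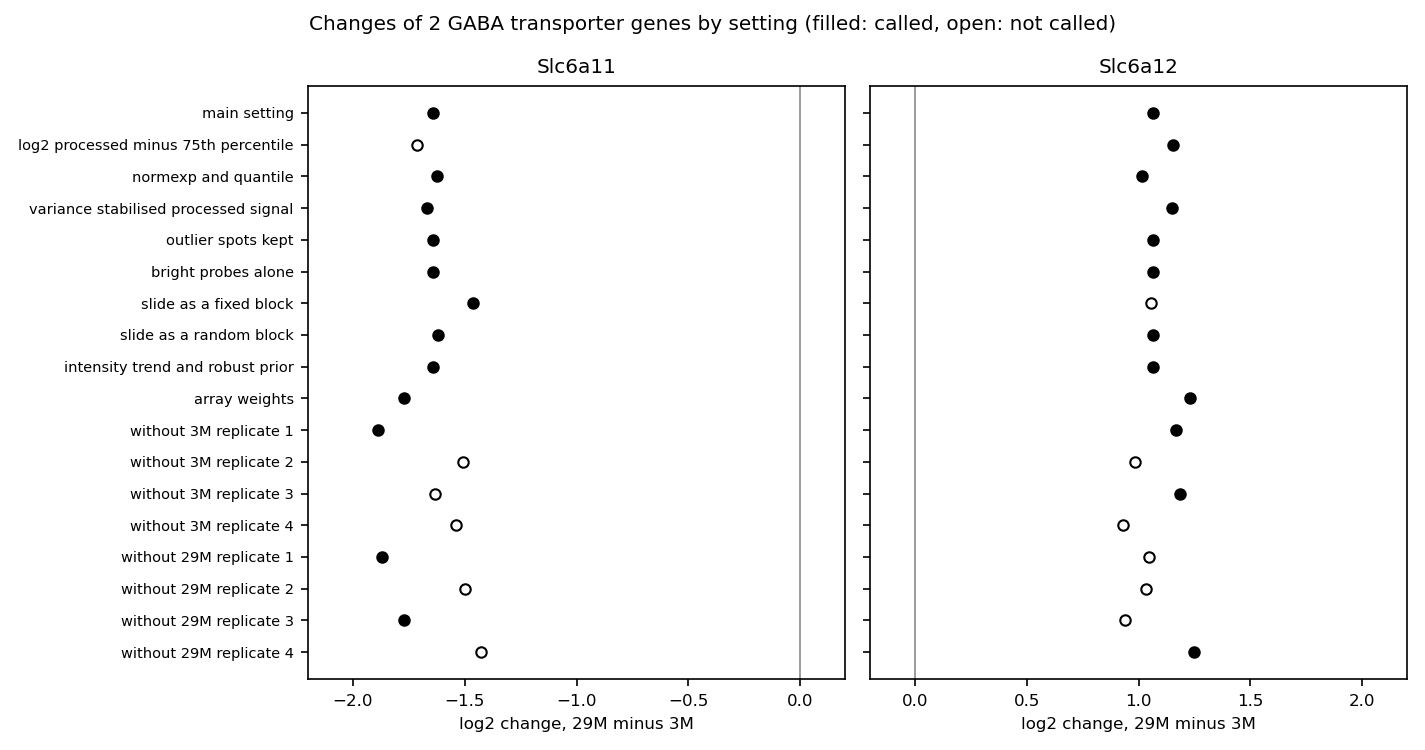
Log2 change (29M minus 3M, horizontal axes) of the GABA transporter genes Slc6a11 and Slc6a12 in the main setting, under other normalizations and models, and without each array in turn, with filled points where the gene was called. Slc6a11 stays below 0 between -1.89 and -1.43 and Slc6a12 stays above 0 between 0.93 and 1.25 without single arrays, while both lose the call without 5 of the 8 arrays, taken one at a time.

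Slc6a13, the transporter GAT2 of the meninges, differed by 0.31 (SE 0.22, adjusted p = 0.528 by limma), with overlapping groups.

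Among the plasma membrane carriers of glutamate, glutamine and related amino acids, none was called. Slc1a5, the neutral amino acid exchanger ASCT2, read 10.13, 9.78, 9.68 and 9.83 at 3M and 10.18, 10.29, 10.24 and 10.34 at 29M. The groups did not overlap, and the log2 change was 0.40 (SE 0.11, adjusted p = 0.101 by limma). On the other Slc1a5 probe the groups did not overlap either, and the change was 0.29 (adjusted p = 0.175 by limma). Slc7a11, the cystine and glutamate antiporter xCT, read 11.30, 10.94, 10.74 and 10.88 at 3M and 11.56, 11.67, 11.70 and 10.95 at 29M. Its replicate 4 of 29M lay within the range of 3M, and the log2 change was 0.50 (SE 0.18, adjusted p = 0.207 by limma). Slc7a11 passed with array weights (0.61, adjusted p = 0.0375 by limma) and without replicate 4 of 29M (0.67, adjusted p = 0.0769 by limma).

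Slc17a8, the vesicular transporter VGLUT3 of some interneurons and serotonergic axons, differed by -0.37 on its brighter probe (SE 0.10, adjusted p = 0.122 by limma), without overlap of the groups, and by 0.20 on the other probe. Arl6ip5, a membrane protein that binds and restrains EAAC1, read 15.48, 15.43, 15.32 and 15.44 in 3M and 15.10, 14.78, 14.98 and 14.99 in 29M. All 29M arrays were below all 3M arrays. The log2 change of Arl6ip5 was -0.45 (SE 0.09, adjusted p = 0.0458 by limma), which passed the threshold on p and fell short of that on size, and it was -0.49, -0.64 and -0.28 within slides 1 to 3.

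The 4 mitochondrial carriers of glutamate and aspartate all read higher at 29M, by 0.24 to 0.48, and none was called. Slc25a13, the aspartate and glutamate carrier citrin, read 10.42, 10.32, 9.82 and 10.67 at 3M and 10.69, 10.65, 10.92 and 10.88 at 29M, with a log2 change of 0.48 (SE 0.17, adjusted p = 0.194 by limma). The value of Slc25a22, a mitochondrial glutamate carrier picked out after its values were seen, rested on 1 array. It read 14.73, 14.75, 15.03 and 13.20 in 3M and 14.83, 14.75, 14.76 and 14.63 in 29M, and its log2 change of 0.32 was -0.09 without replicate 4 of 3M.

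The 9 enzymes of the cycle include glutaminase, glutamate dehydrogenase, the glutamate decarboxylases and GABA transaminase. On their brightest probes they differed by -0.12 to 0.21, and 0 of 9 were called. The other probe of the glutamate dehydrogenase gene Glud1 differed by 0.29 (adjusted p = 0.175 by limma). Gad1 and Gad2, which make GABA, differed by 0.10 (SE 0.08, adjusted p = 0.582 by limma) and 0.00 (SE 0.09, adjusted p = 0.992 by limma). Kcnj10, a potassium channel of astrocytes, was not called either, at 0.16 (SE 0.11, adjusted p = 0.498 by limma).

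**Figure D4:**
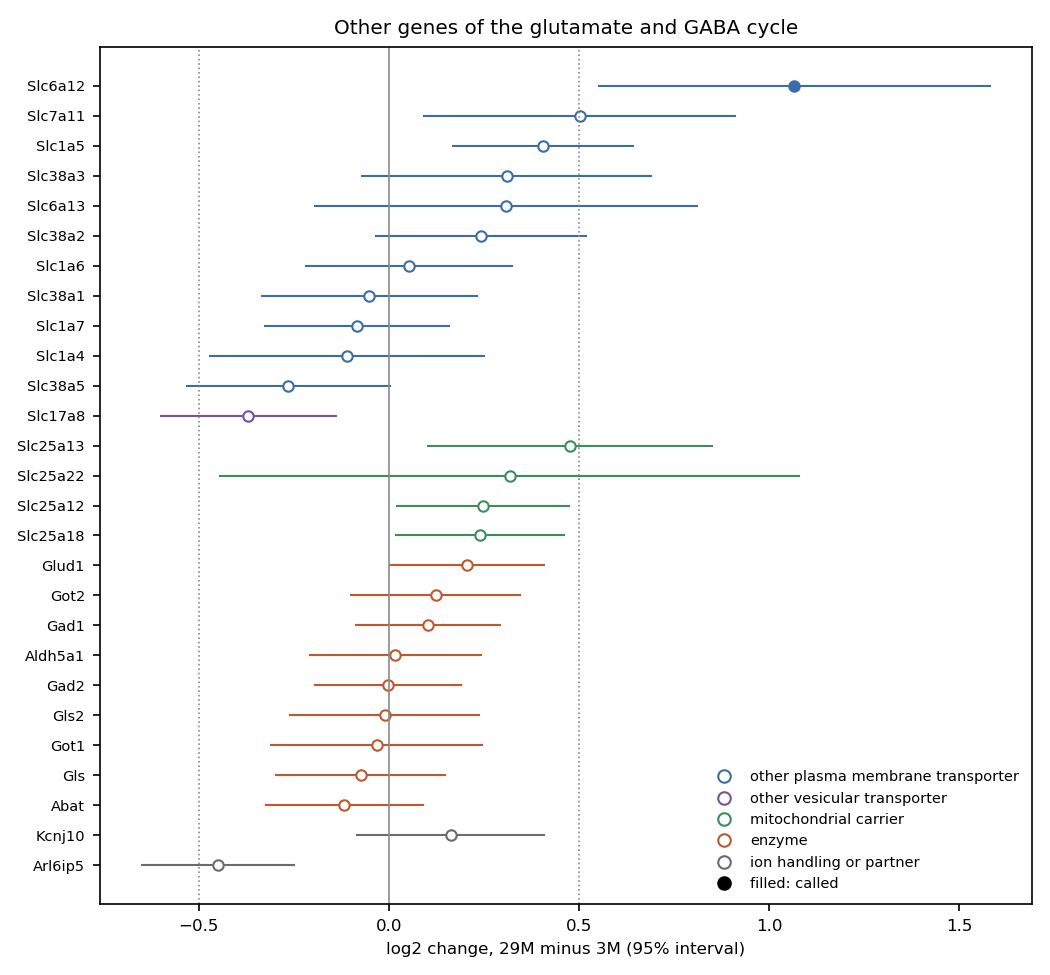
Log2 change (29M minus 3M, horizontal axis) with the 95% interval from limma of the 27 measured genes of the wider glutamate and GABA cycle, grouped by role in colour, each on its brightest probe. Only Slc6a12, at 1.07, is filled as called, the 4 mitochondrial carriers lie between 0.24 and 0.48, and the 9 enzymes lie between -0.12 and 0.21.

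For each member, the gene with the most similar pattern over the 8 arrays was looked up among 15907 genes with a bright probe, by Pearson correlation of the normalized log2 values. With so many genes and 8 arrays high values are found for any profile, so these are a description. The difference between the ages was left in the values. A gene picked as most like Slc6a11 therefore tends to fall with age as well. Slc6a11 was most like Msl2, a subunit of a chromatin complex, with r = 0.988, and Msl2 fell by 1.07 (adjusted p = 0.0267 by limma). Slc1a2 was most like Cpsf2, a factor of mRNA 3′ end processing, with r = 0.992, and Cpsf2 differed by -0.20 (adjusted p = 0.262 by limma). The closest genes were Mfsd10 for Slc17a7 (r = 0.982), Coch for Glul (r = 0.988), Mafa for Slc1a3 (r = 0.969), Rpl3l for Slc1a1 (r = 0.980), Agrp for Slc32a1 (r = 0.973) and Esrrg for Slc17a6 (r = 0.944). In other normalizations, added after these genes had been found, the likeness to Agrp was 0.476 with processed signals scaled to the 75th percentile, that to Esrrg was 0.758, and that to Rpl3l was 0.834 after normexp correction.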

How the data were processed

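Hippocampal RNA was labelled with Cy3 and hybridised to 1 Agilent whole mouse genome array per sample. The authors deposited each array's scanner file, with linear intensities that had not been normalized across arrays, made per the file headers with Agilent Feature Extraction 10.7.3.1. Software version, scanner and array design in the headers differ from those named in the study's methods. The deposited table of the whole series holds intensities too, but each of its 8 columns matched, to a tolerance of 0.001, the mean local background of some array, in 7 columns that of another sample, with medians from 26.7 to 34.8, so it was not used. No scale, centring or direction of expression could be derived from it.

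Outlier spots (127 to 190 per array) were removed. Median spot intensities, used because the mean was not in the files, were normalized by an implementation of variance stabilising normalization made for this purpose (trimming quantile 0.9, 7 iterations, in R 4.3.3), on whose scale changes of dim probes are understated. Replicate spots were averaged. limma 3.58.1 (lmFit, eBayes, term for age) was fitted to the 39408 probes with at least 3 usable arrays per group, with Benjamini-Hochberg adjustment over all of them. No dim probe was removed. The type of normalization, the model and the thresholds (adjusted p under 0.1, log2 change of at least 0.5) follow the study's methods. The fit was tested on simulated data, with independent noise, no slide effects and changes above the log2 threshold in bright probes. The outcome of that test is not given here, and it does not cover smaller changes. Accessions were matched to RefSeq symbols of GRCm38.p6, which named 26055 of 39429 probes (66.1%). The arrays were designed on another build, so no probe coordinates are given. A gene with several probes is given by the brightest one. Summed levels of a list add linear values over its genes, and log2 is then taken.

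Samples were grouped and numbered by their titles. The members and lists were chosen with earlier results of these data known. A result on some genes of the wider list is not reported here. Named were the members, genes of the wider list that were called or had the 6 smallest p, the gene most like each member, and markers. Slc6a13, Kcnj10, Glud1, Slc25a22 and Slc1a7 were named outside this rule. Differences of 2 genes were tested by two-sided exact permutation over the arrays. Alternatives changed the normalization, outlier spots, dim probes, slide or replicate blocks, prior, array weights, thresholds and arrays used.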

Additional observations from a re-analysis of the deposited data

Results flagged for a closer look

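Single arrays that stood apart from their group were looked for on the 11 member probes and the 27 genes of the wider list, in 76 groups of 4 arrays. A group was taken up when the gap between the outermost array and its nearest neighbour made up more of the group's whole range than Dixon's critical value for 4 samples. Chance gives about 1 in 20 such groups, here 3.8, and 3 were found, 1 of them among the 22 groups of member probes.

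For Slc17a7 (VGLUT1) at 3M the gap was 0.978 of the range, with replicate 1 at 13.36 and the others between 14.12 and 14.13. The change of this gene turned its sign when this array was left out. For the mitochondrial glutamate carrier Slc25a22 at 3M the gap was 0.839, with replicate 4 at 13.20 and the others between 14.73 and 15.03. For Slc1a7, a glutamate transporter typical of retina, the gap at 29M was 0.899, with replicate 1 at 8.82 and the others between 8.53 and 8.56. Replicate 1 of 3M had the lowest share of spots well above background (76.2%), and the part of this in its values was not tested.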

How the results depend on the processing

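Slc6a11 kept its direction in all 20 alternatives and its call in 13, and Slc6a12 likewise kept its direction in all 20 and its call in 13. Gfap kept its call in all 20. Slc32a1, Slc1a1, Slc1a2 and Glul kept their sign on every probe in all alternatives and were never called.

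The count of member probes called was 0 after scaling processed signals to the 75th percentile, while it was 0 to 1 without single arrays. The count of genes called on the wider list was 0 with slide as a fixed block, 0 at an adjusted p under 0.05, 2 with array weights, 2 with no minimum log2 change, and 0 to 2 without single arrays. Over all probes, 850 were called higher and 680 lower with array weights, 308 and 179 at an adjusted p under 0.05, and 764 and 627 with no minimum log2 change. Without single arrays these counts ranged from 266 to 824 higher and from 135 to 640 lower, both highest without replicate 1 of 3M.

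Signs turned for Slc17a6 (-0.020 with scaled processed signals, -0.0047 with their variance stabilisation) and Slc1a3 (-0.10 and -0.089). Without single arrays Slc17a7 ranged from -0.048 to 0.22, turned by replicate 1 of 3M, and Slc25a22 ranged from -0.092 to 0.52, turned by replicate 4 of 3M. The shift of Slc17a7 against Slc17a6 was 0.079 with either use of processed signals, 0.043 as the mean within slides, and -0.19 to 0.099 without single arrays. The shift of Slc1a2 against Slc1a3 was -0.15 with either use of processed signals and -0.37 to -0.24 without single arrays, and that of Slc17a7 against Slc32a1 was 0.15 and 0.081 to 0.46. The cause of these differences was not tested.

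Same-numbered arrays of 3M and 29M deviated from their group means with r of -0.24, 0.21, -0.23 and 0.07, and only replicate 4 of 3M correlated best with its own number, so the numbers do not pair the samples. With the replicate number as a block, 266 probes were called higher and 145 lower, 0 member probes were called, and Slc6a11 was at -1.64 (limma adjusted p = 0.157).

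All member probes were well above background. Whether signal limited the dimmer ones among them was not tested. No scaling moved the median of all probes by over 0.1.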
